A study of Mus musculus with 59 samples.

Results

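In the prefrontal cortex of young mice, 10 genes that respond to glucocorticoids or to fasting in many tissues were followed: Plin4, Arrdc2, Sgk1, Fkbp5, Tsc22d3, Hif3a, Cdkn1a, Pdk4, Angptl4 and Nr3c1. They were taken by symbol from a named list, 10 of the 16919 genes with a mean normalized value of at least 10, and all 10 were measured above that level. The members are taken as chosen by the values of HT fluoxetine against HT vehicle mice, which were known when the list was made, so that contrast is given as a description and carries no test. The C57BL/6J mice either carried 1 altered copy of Ank2 (heterozygous, HT; 30 libraries) or were wild type (WT; 29 libraries). Ank2 codes for ankyrin-B, which links membrane proteins to the spectrin cytoskeleton. From postnatal day 3 to 24, over 3 weeks, they received fluoxetine (a serotonin reuptake inhibitor), lithium (a mood stabilizer) or vehicle through the milk of their mothers, and tissue was taken on day 25. Genotype and drug made 6 groups (HT fluoxetine, HT lithium, HT vehicle, WT fluoxetine, WT lithium, WT vehicle) of 10 libraries, 5 of each sex, except WT fluoxetine with 9, of which 4 were male. The labels name no Ank2 allele, no drug dose, no litter, no hormone level and no feeding state. They do not say that each library is a separate animal, so p-values measure the spread between these libraries.

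Glucocorticoids, corticosterone in the mouse, bind the glucocorticoid receptor, which Nr3c1 encodes. The receptor then enters the nucleus and binds a palindromic DNA element, the glucocorticoid response element, to raise transcription of its targets. Some of the targets damp the signal again: Fkbp5 codes for a co-chaperone of HSP90 that lowers the affinity of the receptor for its hormone. Fasting raises glucocorticoids and fatty acids together, so genes such as Pdk4 and Angptl4 answer to the hormone, to the fatty acid receptors of the PPAR family and to FOXO factors.

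RefSeq (GRCm38.p6) held start-site windows for 8 of the 10 genes, 16 windows in all, and the 250 bases before each start were searched on both strands. They are shown because the first 6 genes varied together between libraries, as described further on. The full palindrome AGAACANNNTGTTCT stood in 3 of 32851 windows of the same length (0.00913%), and 1 of those was a window of Sgk1. A single arm of it, AGAACA, which overlaps the palindrome, stood in 16.1% of all windows and in 4 of the 16 windows here, 3 of Sgk1 and 1 of Tsc22d3. The Sgk1 window with the palindrome held 3 arms, whose first bases lay 242, 189 and 180 bases before the start, and the last 2 of them form the palindrome. In the Tsc22d3 window the arm began 185 bases before the start. The window of Plin4, the gene with the largest fluoxetine difference in HT mice, held no arm. Capitals mark each arm, read on either strand:
Sgk1 (chr10:21993640-21993889, plus strand): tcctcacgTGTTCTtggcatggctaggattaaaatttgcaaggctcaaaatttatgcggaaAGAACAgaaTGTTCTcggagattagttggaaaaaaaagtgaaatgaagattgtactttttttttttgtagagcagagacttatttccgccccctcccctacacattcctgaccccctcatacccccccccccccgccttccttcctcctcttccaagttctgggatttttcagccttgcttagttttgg
Tsc22d3 (chrX:140600523-140600772, minus strand): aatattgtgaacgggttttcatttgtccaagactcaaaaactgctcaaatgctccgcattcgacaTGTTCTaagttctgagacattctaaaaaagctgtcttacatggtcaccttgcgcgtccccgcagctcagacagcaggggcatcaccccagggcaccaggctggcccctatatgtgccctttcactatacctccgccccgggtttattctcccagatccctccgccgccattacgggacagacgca
Plin4 (chr17:56109783-56110032, minus strand): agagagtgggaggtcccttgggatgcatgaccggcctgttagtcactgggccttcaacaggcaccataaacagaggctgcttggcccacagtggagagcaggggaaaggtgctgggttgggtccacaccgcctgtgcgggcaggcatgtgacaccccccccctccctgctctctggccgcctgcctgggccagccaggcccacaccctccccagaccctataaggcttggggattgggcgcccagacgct
A match in these letters is a description and not a bound site. The paired cores of the p53 element, CATGNNNNNNCATG, stood in 0.49% of all windows and in 1 of the 16 here, a window of Cdkn1a, as CATGtcttgaCATG (chr17:29090931-29090944, plus strand), whose first base lay 48 bases before the start. None of the 16 windows held the FOXO motif TGTTTAC (3.17% of all windows) or the PPAR motif AGGTCANAGGTCA (0.0335%). Motifs this rare are seldom met in 16 windows, so nothing is read from their absence. Angptl4 and Nr3c1, the genes without a window, were not searched.

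Each library held an estimated 25.9 to 36.5 M reads (M, mega). Ank2 lay between 17430 and 22810 in HT libraries and between 23280 and 35820 in WT libraries, with no overlap, and Xist and Ddx3y matched the sex label of every library. All values are normalized signals, estimated read counts that the authors scaled to a common library size. In 3 libraries the markers of a brain region or cell type other than the olfactory bulb lay more than 1.5 above their average on the log2 scale. HT fluoxetine female replicate 2 was 6.33 above for choroid plexus markers, 4.63 for dentate gyrus markers and 1.55 for oligodendrocyte markers, and HT lithium male replicate 1 (1.80) and HT vehicle male replicate 2 (1.55) were high for striatum markers. Markers of the olfactory bulb, which adjoins the dissected tissue, ranged widely in every group. Their summed levels were 216 to 4200 in HT fluoxetine, 309 to 7550 in HT vehicle, 266 to 8970 in WT fluoxetine and 1150 to 9700 in WT vehicle libraries. None of the 6 markers stayed near 0 in every library of a group. Fluoxetine libraries also differed in how the values depended on transcript length. The slope of a library's log2 deviation on log2 transcript length ran from -0.015 to 0.068 in HT fluoxetine libraries, against -0.068 to 0.075 in HT vehicle libraries, and from 0.026 to 0.10 in WT fluoxetine libraries, against -0.062 to -0.013 in WT vehicle libraries, where the groups did not overlap. Per kilobase of transcript, Tsc22d3 had the highest level (729 per kb) and Plin4 the lowest (7.58 per kb, above only 6.3% of the genes tested), with Sgk1 at 561, Cdkn1a at 518, Nr3c1 at 487, Fkbp5 at 307, Arrdc2 at 99.1, Pdk4 at 67.0, Hif3a at 63.9 and Angptl4 at 27.3 per kb. Plin4 (chromosome 17, 56100591 to 56109803) shares 17 bases with Hdgfl2 on the opposite strand, whose mean value was 2444 and whose log2 change with fluoxetine was 0.09 ± 0.04 (SE) in HT and -0.06 ± 0.04 in WT.

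In HT mice that had received fluoxetine, 6 of the 10 genes stood above their level in HT vehicle mice, with Plin4 ahead of the rest. Plin4, which codes for a perilipin that coats lipid droplets, had a lowest, median and highest value of 32.7, 95.5 and 305 in HT fluoxetine libraries, against 11.8, 23.0 and 50.5 in HT vehicle libraries. In all, 8 of the 10 HT fluoxetine libraries were above every HT vehicle library, and the groups overlapped only in the other 2. The log2 difference was 1.89 ± 0.27 (SE), or 3.70-fold. Arrdc2, a member of the alpha-arrestin family, had 171, 314 and 480 in HT fluoxetine libraries, against 145, 216 and 248 in HT vehicle libraries. Here 9 of the 10 HT fluoxetine libraries were above all HT vehicle libraries, and the log2 difference was 0.54 ± 0.12.

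Fkbp5, the receptor's co-chaperone, had a lowest, median and highest value of 944, 1539 and 2870 in HT fluoxetine libraries, against 744, 1196 and 1391 in HT vehicle libraries. Its log2 difference was 0.51 ± 0.14, and 7 HT fluoxetine libraries exceeded the HT vehicle range. Sgk1, a kinase that acts on ion channels and transporters, had 1641, 2114 and 3038 in HT fluoxetine libraries, against 1235, 1599 and 1977 in HT vehicle libraries, a log2 difference of 0.42 ± 0.10. Tsc22d3, whose product GILZ carries anti-inflammatory effects of the hormone, had 1754, 2584 and 3180 in HT fluoxetine libraries, against 1345, 1971 and 2356 in HT vehicle libraries (log2 difference 0.32 ± 0.11). For each of these last 2 genes, 6 HT fluoxetine libraries were above the whole HT vehicle group. Hif3a, an alpha subunit of the hypoxia-inducible factors, had 287, 671 and 801 in HT fluoxetine libraries, against 203, 427 and 618 in HT vehicle libraries, a log2 difference of 0.60 ± 0.18. HT fluoxetine held the highest mean of the 6 groups for Plin4, Arrdc2, Sgk1, Fkbp5, Tsc22d3 and Hif3a, and also for Angptl4 (log2 mean 6.78, with 6.68 in HT vehicle). Its gap to the next group was wider than the pooled spread of the pair for Plin4, Arrdc2 and Fkbp5 and narrower for Sgk1, Tsc22d3, Hif3a and Angptl4.

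**Figure D1:**
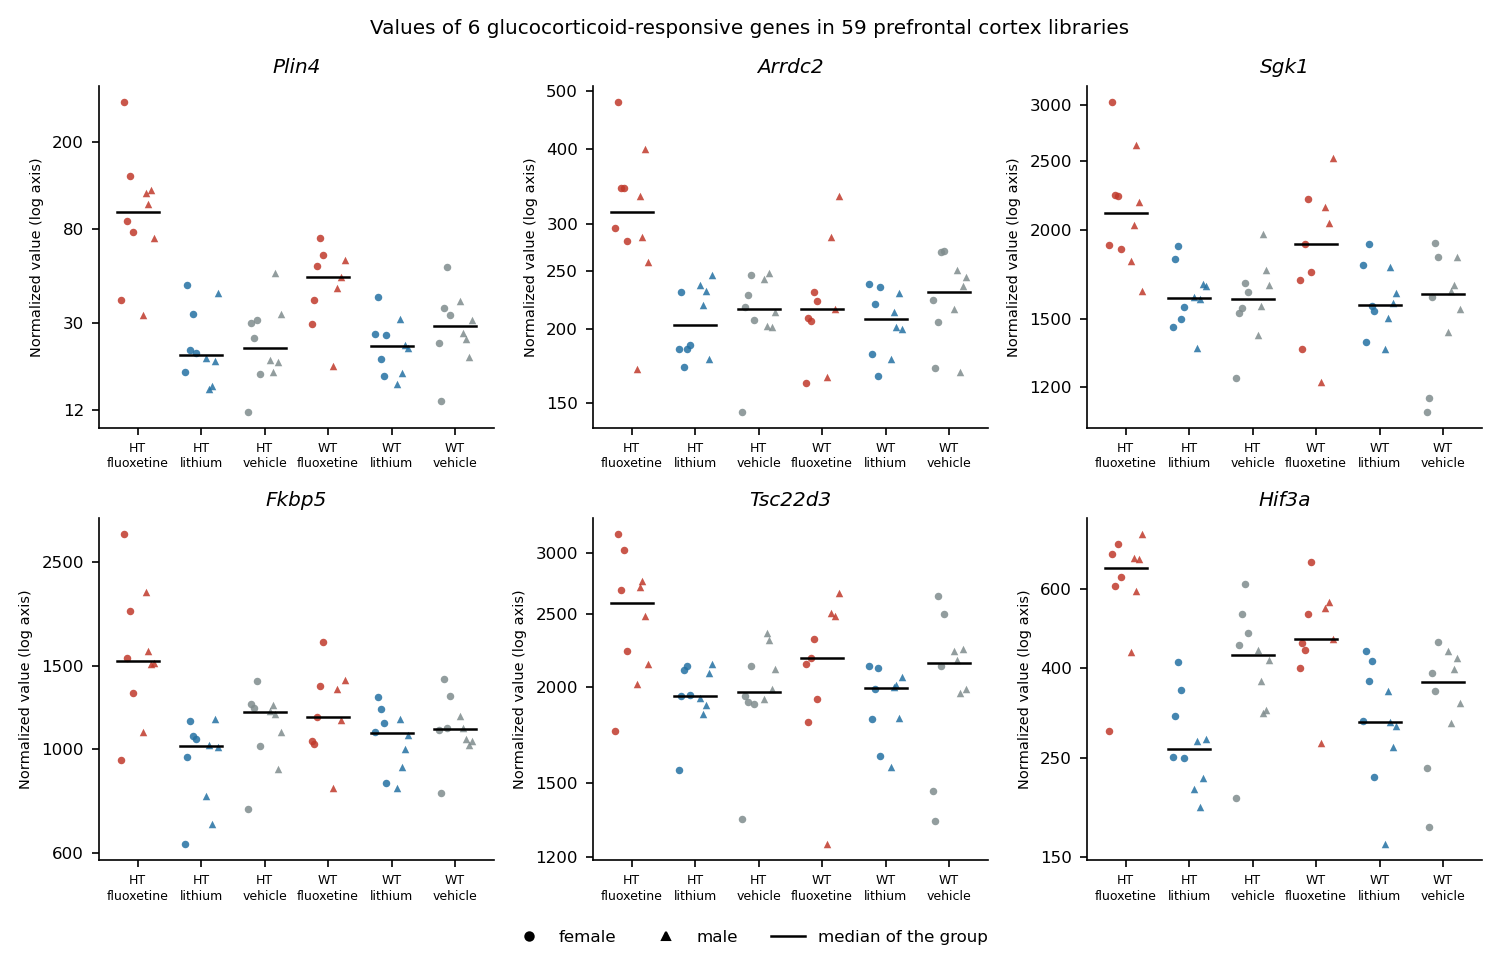
Normalized value (log axis) of Plin4, Arrdc2, Sgk1, Fkbp5, Tsc22d3 and Hif3a in each of the 59 libraries, by genotype and drug; circles are females, triangles males, and the line is the group's median. The HT fluoxetine median is the highest of the 6 groups in each panel, at 95.5 for Plin4 against 23.0 in HT vehicle, and the groups overlap in every panel.

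The remaining 4 genes did not share this pattern, apart from the small lead of HT fluoxetine in the mean of Angptl4. Pdk4, the kinase that shuts off pyruvate dehydrogenase in fasting, had 181, 224 and 331 in HT fluoxetine libraries, against 212, 239 and 270 in HT vehicle libraries (log2 difference -0.04 ± 0.09). Angptl4, a secreted inhibitor of lipoprotein lipase, had 64.5, 105 and 204 in HT fluoxetine libraries, against 51.6, 105 and 165 in HT vehicle libraries (0.10 ± 0.20). Cdkn1a, the cell-cycle inhibitor p21 and a target of p53 and of FOXO factors, had 405, 990 and 1258 in HT fluoxetine libraries, against 682, 988 and 1461 in HT vehicle libraries (-0.12 ± 0.12). Nr3c1, the receptor itself, differed by -0.16 ± 0.06, with 2090, 2952 and 3295 in HT fluoxetine libraries, against 2613, 3291 and 3895 in HT vehicle libraries. The lowest HT fluoxetine values of Cdkn1a (405) and Nr3c1 (2090) and the highest of Plin4, Arrdc2, Sgk1, Fkbp5 and Tsc22d3 came from the same library, HT fluoxetine female replicate 2, which carried the choroid plexus and dentate gyrus markers. Without it the difference of Cdkn1a was 0.02 and that of Nr3c1 -0.10, and with the olfactory bulb marker level as a covariate that of Cdkn1a was 0.02.

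By the threshold used throughout (adjusted p under 0.05 over all genes, limma), 6 of the 10 genes were past it in HT fluoxetine against HT vehicle, all higher, where 14.0% of all genes were past it and 6.63% were past it and higher. Since this contrast chose the list, nothing is read from that count. For 0 of the 10 genes were the groups without overlap, as they were for 0.420% of all genes. Without HT fluoxetine female replicate 2 the number of the 10 past the threshold was 5, with 14.7% of all genes. Without HT vehicle female replicate 1 it was 4, with 16.1% of all genes, and without the 3 libraries that stand apart 5, with 13.4%. With the olfactory bulb marker level as a covariate it was 4, with 12.3% of all genes. Plin4, Arrdc2, Sgk1 and Fkbp5 were past the threshold each time. The log2 difference of Plin4 was 1.69 without HT fluoxetine female replicate 2 and 1.77 with the covariate. In females alone 3 genes were past the threshold, with 8.75% of all genes, and in males 1 gene, with 3.36%. Plin4 differed by 2.18 ± 0.38 in females and by 1.60 ± 0.38 in males on the log2 scale, and Cdkn1a by -0.50 ± 0.17 in females and 0.27 ± 0.17 in males. Olfactory bulb markers were lower in HT fluoxetine than in HT vehicle libraries for all 6 of 6 genes, with a median log2 difference of -1.07, and 4 of 5 blood markers were past the threshold and lower (median -0.71). Of 10 astrocyte markers, 8 were above 0, and 3 were past the threshold and higher (median 0.05). Correlations of the 10 listed genes with the astrocyte level were not computed. The part of these tissue differences in the values above was not tested. In RNA from whole tissue, fewer cells of a type and less RNA per cell cannot be told apart.

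The same drug in WT mice gives a contrast that shares no library with the one taken as having chosen the list. None of the 10 genes passed the test in WT fluoxetine against WT vehicle (limma, adjusted p under 0.05), where 14.8% of all genes did. An unadjusted p under 0.05 was found for 3, Plin4, Sgk1 and Hif3a, beside 4549 of all 16919 genes. With the length and GC trend removed, 0 of the 10 passed as well, and the differences of Plin4, Sgk1 and Hif3a were 0.56, 0.27 and 0.41. Plin4 had a lowest, median and highest value of 19.1, 48.4 and 72.7 in WT fluoxetine libraries, against 13.3, 29.0 and 54.0 in WT vehicle libraries. Of the 9 WT fluoxetine libraries, 4 were above the whole WT vehicle group and the rest overlapped it, with a log2 difference of 0.60 ± 0.28 (SE; 95% interval 0.06 to 1.15; adjusted p = 0.15). Hif3a had 270, 463 and 693 in WT fluoxetine libraries, against 175, 372 and 456 in WT vehicle libraries, and 5 WT fluoxetine libraries exceeded that range. Its log2 difference was 0.47 ± 0.19 (interval 0.11 to 0.83; adjusted p = 0.081).

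Sgk1 had 1220, 1911 and 2524 in WT fluoxetine libraries, against 1108, 1625 and 1920 in WT vehicle libraries, a log2 difference of 0.25 ± 0.11 (interval 0.03 to 0.46; limma, adjusted p = 0.12). Fkbp5 had 825, 1170 and 1687 in WT fluoxetine libraries, against 805, 1101 and 1411 in WT vehicle libraries (0.12 ± 0.15, adjusted p = 0.67). Tsc22d3 had 1245, 2184 and 2664, against 1337, 2154 and 2635 in WT vehicle libraries (0.05 ± 0.11, adjusted p = 0.84). Arrdc2 had 162, 216 and 334 in WT fluoxetine libraries, against 170, 230 and 270 in WT vehicle libraries, with a log2 difference of -0.00 ± 0.12 whose interval ran from -0.24 to 0.23 and whose sign changed with the normalization. Cdkn1a, Pdk4, Angptl4 and Nr3c1 differed by -0.12 to 0.03. The median over the 10 genes was 0.04, beside -0.001 over all genes. In WT mice 1 library weighed on several of these values: WT fluoxetine male replicate 1 was the lowest of its group for 5 of the first 6 genes and held the group's highest olfactory bulb marker level (2.49 above average). Without it Sgk1 rose by 0.35 (adjusted p = 0.013) and Hif3a by 0.59 (adjusted p = 0.027), so that 2 genes passed the test. Without WT vehicle female replicate 5 Hif3a alone passed, at 0.54 (adjusted p = 0.043). Over the 19 fits with 1 library left out, 2047 to 2582 of all 16919 genes passed. The fits named here were picked by the values of the listed genes, so nothing is read from these counts.

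Set side by side, the fluoxetine difference of Plin4 was 1.89 (95% interval 1.35 to 2.42) in HT and 0.60 (0.06 to 1.15) in WT. For Arrdc2 it was 0.54 (0.31 to 0.76) in HT and -0.00 (-0.24 to 0.23) in WT, and for Hif3a 0.60 (0.25 to 0.95) in HT and 0.47 (0.11 to 0.83) in WT. Whether the response differs between the genotypes was not tested, because the HT libraries are taken to have chosen the genes. Directly between the fluoxetine groups, HT minus WT, the log2 difference was 1.04 for Plin4, 0.47 for Arrdc2, 0.40 for Fkbp5, 0.37 for Hif3a, 0.23 for Tsc22d3 and 0.21 for Sgk1. Without WT fluoxetine male replicate 1 both Tsc22d3 and Sgk1 were at 0.10, and with the olfactory bulb covariate they were at 0.11 and 0.06. None of the 10 genes passed the threshold there, where 0.0118% of all genes did. In the vehicle groups, HT minus WT, 0 of the 10 passed with 0.00591% of all genes, and the log2 differences lay between -0.24 (Plin4) and 0.24 (Hif3a).

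**Figure D2:**
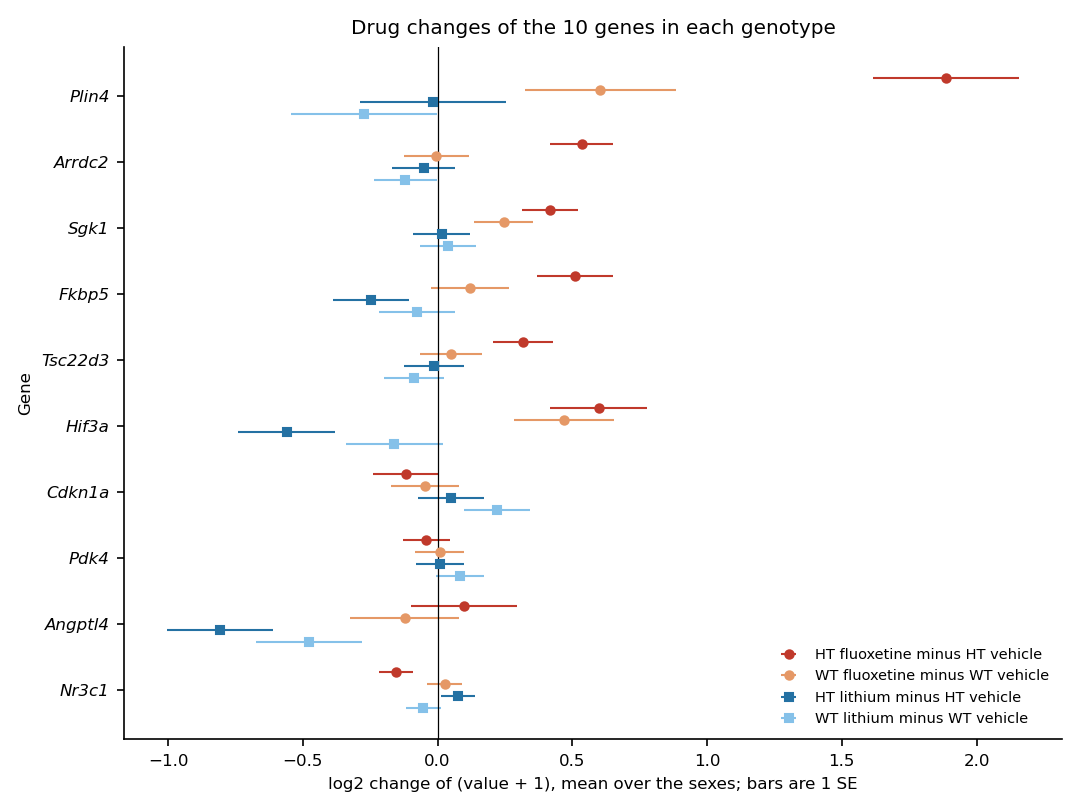
log2 change of (value + 1) for each of the 10 genes with fluoxetine (circles) and lithium (squares) in HT and WT mice, as the mean over the sexes with bars of 1 SE. Plin4 lies at 1.89 in HT and 0.60 in WT with fluoxetine, and Angptl4 at -0.81 in HT and -0.48 in WT with lithium; contrasts of 1 genotype share their vehicle libraries.

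With lithium, Angptl4 had the most negative difference of the 10 genes in both genotypes. In WT mice, Angptl4 had a lowest, median and highest value of 51.8, 71.7 and 114 in lithium libraries, against 64.4, 98.2 and 148 in vehicle libraries. Of 10 lithium libraries, 4 were below the whole vehicle group. The log2 difference was -0.48 ± 0.20 (SE; interval -0.86 to -0.09), which did not pass the test (limma, adjusted p = 0.23). By sex it was -0.76 ± 0.28 in females and -0.19 ± 0.28 in males. The difference between the sexes did not pass either (-0.57 ± 0.39; limma, adjusted p = 0.59). Cdkn1a had 1014, 1280 and 1496 in WT lithium libraries, against 895, 1075 and 1602 in WT vehicle libraries (0.22 ± 0.12, adjusted p = 0.44). None of the 10 genes passed in WT lithium against WT vehicle, where 2.22% of all genes did. An unadjusted p under 0.05 was found for 1, beside 2288 of all 16919 genes. The remaining 8 lay between -0.27 (Plin4) and 0.08 (Pdk4).

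In HT mice, lithium was compared with the vehicle libraries that also entered the contrast that chose the list, so these values are given without a test. Angptl4 had 28.8, 62.1 and 99.7 in HT lithium libraries, against 51.6, 105 and 165 in HT vehicle libraries, a log2 difference of -0.81 ± 0.20, and 4 HT lithium libraries were below every HT vehicle library. Hif3a had 194, 262 and 411 in HT lithium libraries, against 203, 427 and 618 in HT vehicle libraries (-0.56 ± 0.18). Fkbp5 had 625, 1013 and 1156, against 744, 1196 and 1391 in HT vehicle libraries (-0.25 ± 0.14). Angptl4 alone, 1 of the 10 genes, was past the threshold here, with 5.01% of all genes. The other 7 lay between -0.05 (Arrdc2) and 0.07 (Nr3c1), and Plin4 had 14.97, 21.4 and 44.6 in HT lithium libraries, against 11.8, 23.0 and 50.5 in HT vehicle libraries.

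The lithium groups of the genotypes, which share no library with the contrast that chose the list, were compared by test. None of the 10 genes passed in HT lithium against WT lithium (limma, adjusted p under 0.05), where 0.550% of all genes did. Nr3c1 had a lowest, median and highest value of 2946, 3387 and 4000 in HT lithium libraries, against 2558, 2905 and 3514 in WT lithium libraries, and 4 HT lithium libraries were above the WT lithium range (log2 difference 0.18 ± 0.06, adjusted p = 0.15). Cdkn1a had 768, 1101 and 1179 in HT lithium libraries, against 1014, 1280 and 1496 in WT lithium libraries (-0.29 ± 0.12, adjusted p = 0.23). With the olfactory bulb marker level as a covariate the Cdkn1a difference was -0.15. Angptl4 differed by -0.25 ± 0.20, Fkbp5 by -0.16 ± 0.14 and Hif3a by -0.16 ± 0.18, and the other 5 genes by 0.00 to 0.05. With 1 library left out, Angptl4 ran from -0.34 (without HT lithium female replicate 1) to -0.13 (without HT lithium male replicate 4), Fkbp5 from -0.21 to -0.08 (the last without HT lithium female replicate 1) and Hif3a from -0.25 (without WT lithium male replicate 1) to -0.11. Olfactory bulb markers were lower in HT lithium than in WT lithium libraries for 6 of 6 genes (median -1.25), and their part in these values was not tested.

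**Figure D3:**
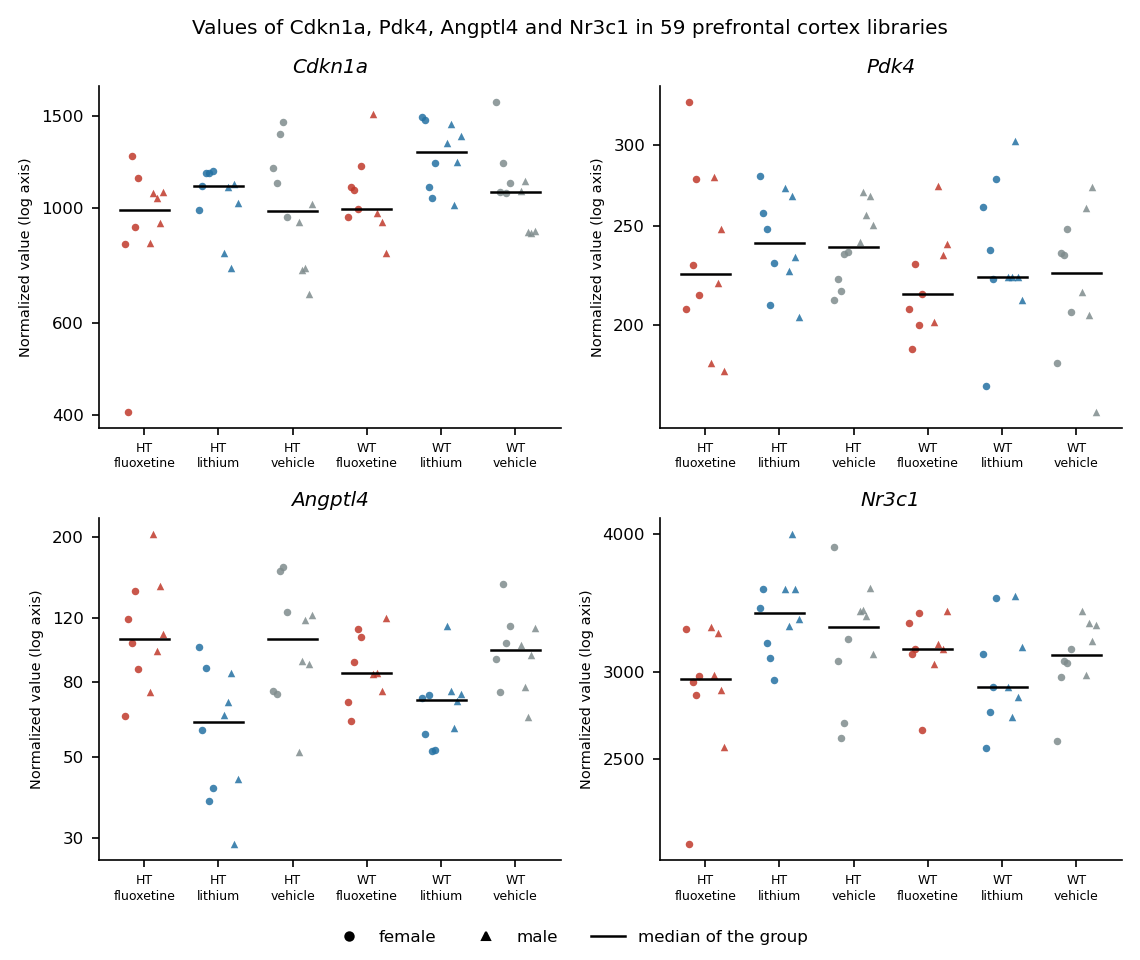
Normalized value (log axis) of Cdkn1a, Pdk4, Angptl4 and Nr3c1 in each of the 59 libraries, by genotype and drug; circles are females, triangles males, and the line is the group's median. The lithium medians of Angptl4 are 62.1 in HT and 71.7 in WT, below the vehicle medians of 105 in HT and 98.2 in WT, and the lowest Cdkn1a and Nr3c1 values are those of 1 HT fluoxetine female.

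Between the sexes, over all 6 groups, 0 of the 10 genes passed the test (limma, 2.10% of all genes did). An unadjusted p under 0.05 was found for 2, beside 3221 of all 16919 genes. Cdkn1a was 0.15 ± 0.07 higher in females than in males (adjusted p = 0.24; 0.06 with the olfactory bulb covariate) and Nr3c1 0.09 ± 0.04 lower (log2 difference -0.09, adjusted p = 0.16). For the difference between females and males in the response of WT mice to fluoxetine or to lithium, 0 genes passed, listed or not (0.00% in each; limma, adjusted p under 0.05), with 1447 and 1897 genes at an unadjusted p under 0.05 for fluoxetine and lithium.

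Between libraries of the same group, the first 6 genes of the list varied together. Deviations from the 12 means of genotype, drug and sex were correlated over the 59 libraries, which removes the group differences that chose the list, with permutations within groups and adjustment over 45 pairs. All 15 pairs among Plin4, Arrdc2, Sgk1, Fkbp5, Tsc22d3 and Hif3a had a positive Pearson r (0.45 to 0.80) past an adjusted permutation p of 0.05, and 13 did by Spearman's rho. The share of passing pairs among other genes was not computed, so these counts have no background to be set against. These 6 are also the listed genes past the threshold in the contrast that chose the list. The closest pair was Sgk1 with Tsc22d3 (r = 0.80, rho = 0.73, adjusted permutation p = 6.4e-05 for r). The raw p of that r, 1e-05, is the smallest that the permutations can give, and r was 0.74 without the 2 libraries farthest from the median. Fkbp5 followed Hif3a (r = 0.77, rho = 0.69), Tsc22d3 (r = 0.75, rho = 0.69) and Plin4 (r = 0.74, rho = 0.64), each with an adjusted permutation p of 6.4e-05 for r and with r of 0.66 to 0.75 without the 2 farthest libraries. Within WT libraries alone 9 of the 15 pairs passed (r 0.34 to 0.85), and without the 3 libraries that stand apart all 15 did. Low values of these 6 genes gathered in libraries with replicate number 1, which the permutations took no account of.

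Nr3c1 ran against its co-chaperone: r with Fkbp5 was -0.58 and rho -0.46 (adjusted permutation p = 0.00056 and 0.0048), and r was -0.46 without the 2 farthest libraries. In WT libraries alone r was -0.28 and rho -0.17 (adjusted permutation p = 0.26 and 0.59), so the relation did not pass there. With Plin4 it was -0.39 (adjusted permutation p = 0.026), but rho was -0.24 (0.14) and r -0.21 without the 2 farthest, so that relation rested on those libraries. Pdk4 followed Sgk1 (r = 0.51, rho = 0.52, adjusted permutation p = 0.00053 and 0.00076), and Cdkn1a ran against both Sgk1 (r = -0.49, rho = -0.37) and Pdk4 (r = -0.45, rho = -0.40). In WT libraries r was 0.47 for Pdk4 with Sgk1 and -0.64 for Cdkn1a with Sgk1 (adjusted permutation p = 0.023 and 0.02), while Cdkn1a with Pdk4 (-0.37, 0.13) did not pass. For Cdkn1a with Nr3c1 r was -0.09 and rho -0.37 (adjusted permutation p = 0.71 and 0.019), but r was -0.48 without the 2 farthest libraries. In WT libraries alone that r was -0.52 and rho -0.41 (adjusted permutation p = 0.02 and 0.13). Without the 3 libraries that stand apart r was -0.54 (adjusted permutation p = 0.0002). In all, 29 of the 45 pairs passed by r, 24 positive and 5 negative, with no share over pairs of other genes to set beside them. The labels name no batch, so no value within batches can be given.

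**Figure D4:**
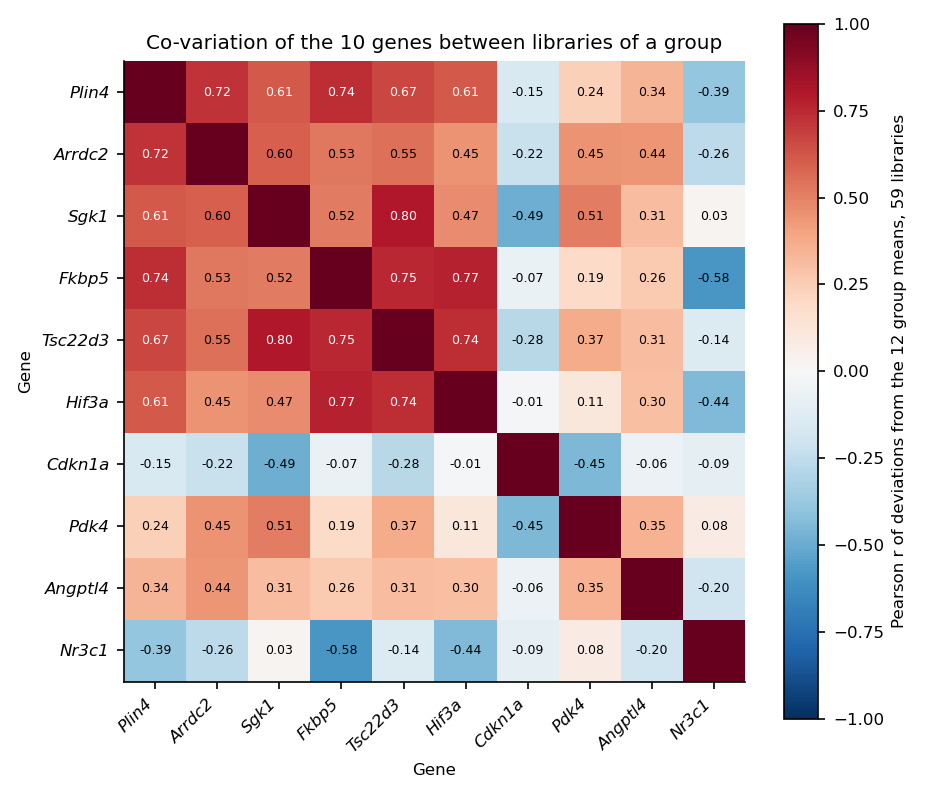
Pearson r between each pair of the 10 genes over 59 libraries, computed on deviations of log2(value + 1) from the means of the 12 groups of genotype, drug and sex; red is positive and blue negative. The block of Plin4, Arrdc2, Sgk1, Fkbp5, Tsc22d3 and Hif3a is positive throughout (0.45 to 0.80), and Nr3c1 with Fkbp5 is at -0.58.

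Some of the 10 genes also moved with the tissue content of the libraries. Of 30 relations with the olfactory bulb level, the oligodendrocyte level and the dependence of the values on transcript length, 10 passed by r and 5 by rho. Sgk1 fell with the olfactory bulb level (r = -0.57, rho = -0.51, adjusted permutation p = 0.0028 and 0.0061; r = -0.52 without the 2 farthest libraries) and Cdkn1a rose with it (r = 0.54, rho = 0.51, adjusted permutation p = 0.0028 and 0.0061). Tsc22d3 fell with it by r alone (r = -0.41, rho = -0.34, adjusted permutation p = 0.044 and 0.091). For Plin4 r was -0.20 and for Fkbp5 -0.29, both short of the threshold. Sgk1 rose with the oligodendrocyte level (r = 0.45, adjusted permutation p = 0.0039) and Cdkn1a fell with it (r = -0.61, adjusted permutation p = 0.0038), with r of 0.35 and -0.46 without the 2 farthest libraries. Pdk4 (r = 0.43, rho = 0.31) and Arrdc2 (r = 0.35, rho = 0.31) rose with the oligodendrocyte level by r alone (adjusted permutation p = 0.033 and 0.044). With the length slope, Pdk4 fell by both measures (r = -0.40, rho = -0.38, adjusted permutation p = 0.006 and 0.037), and Sgk1 (r = -0.35, rho = -0.34) and Tsc22d3 (r = -0.37, rho = -0.28) fell by r alone (adjusted permutation p = 0.045 for each). Whether these measures account for the co-variation was not tested.

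**Figure D5:**
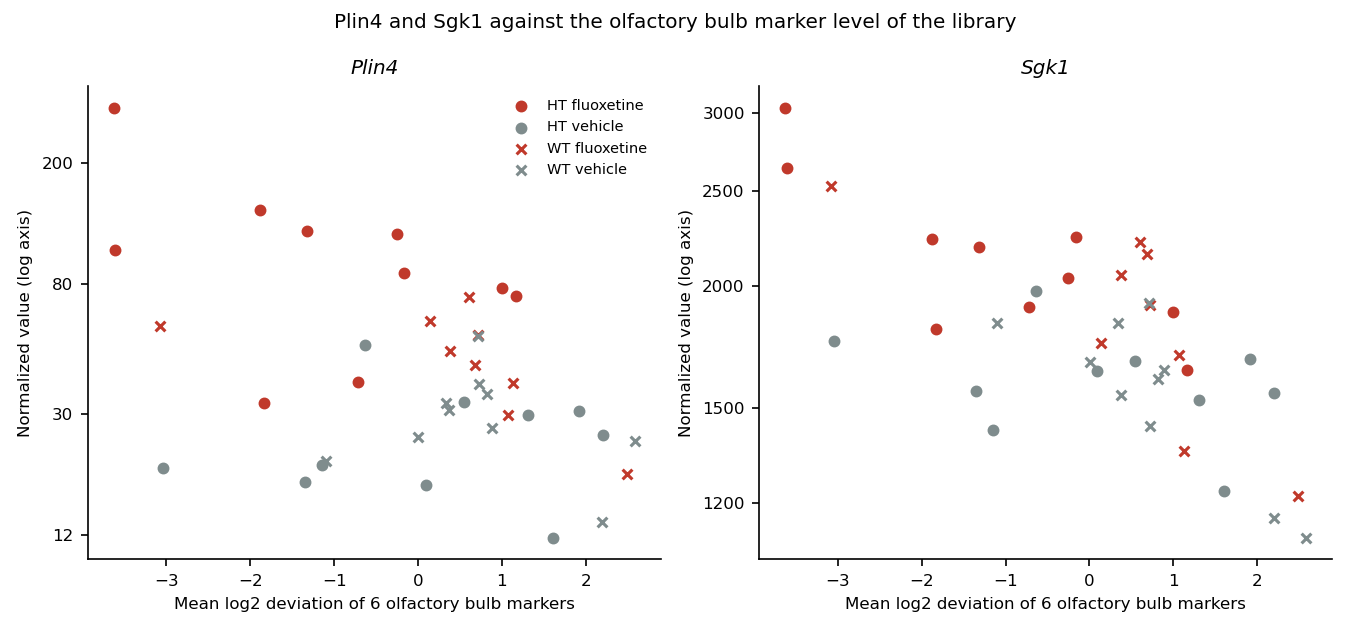
Normalized value (log axis) of Plin4 and Sgk1 against the mean log2 deviation of 6 olfactory bulb markers in the fluoxetine (red) and vehicle (grey) libraries of HT (circles) and WT (crosses) mice. Sgk1 falls as the marker level rises (r = -0.57 over all 59 libraries, on deviations from group means), while for Plin4 r was -0.20, and 8 of the 10 HT fluoxetine libraries lie above every HT vehicle library in Plin4.

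Over these libraries the genes outside the list whose deviations most resembled the mean of the 10 were Sult1a1 (r = 0.82), Smim3 (0.80), Htra1 (0.79), Galnt15 (0.79), Sdc4 (0.78), Fam107a (0.77), Rhou (0.76) and Rhob (0.76). Without the 3 libraries that stand apart these were 0.75 to 0.83.

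Related genes were described from lists drawn from general knowledge, but with earlier results of these data known. Their counts are therefore descriptions and no independent support. The list of other glucocorticoid-induced genes holds Sult1a1, Sdc4 and Fam107a, which are among the most alike genes named above. Of 30 other genes commonly induced by glucocorticoids, 29 were tested. In the contrast that chose the list, 10 were past the threshold and higher and 1 lower in HT fluoxetine than in HT vehicle, with a median log2 difference of 0.20 beside -0.002 over all genes, of which 14.0% were past the threshold and 6.63% past it and higher. With the olfactory bulb level as a covariate these numbers were 6 and 0, with 12.3% of all genes past the threshold in either direction. Among them were Sult1a1, a sulfotransferase (0.61), Slc2a1, the glucose transporter of the blood-brain barrier (0.43), Klf15, a transcription factor of amino acid and lipid metabolism (0.34), and Gpd1, a glycerol phosphate dehydrogenase (0.24), while the phosphatase gene Dusp1 differed by -0.54. In WT mice 1 of the 29 rose with fluoxetine, Nedd9 (0.23 ± 0.08; limma, adjusted p = 0.048), and 1 fell, the metallothionein gene Mt1 (-0.35 ± 0.09, adjusted p = 0.0066), with a median of 0.07 beside -0.001, where 14.8% of all genes passed. With lithium in WT mice Dusp1 (1.05 ± 0.17, adjusted p = 0.00036) and the clock gene Per1 (0.44 ± 0.08, adjusted p = 0.0014) rose, and the other 27 did not pass, where 2.22% of all genes did. In HT mice Per1 (0.38) and Gpd1 (0.22) were past the threshold and higher with lithium, with 5.01% of all genes past it.

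Of 17 tested genes of the receptor's own machinery, 4 rose with fluoxetine in WT mice and none fell, where 14.8% of all genes passed in either direction: the corepressor gene Ncor1 (0.25 ± 0.03; limma, adjusted p = 3.2e-07), the coactivator genes Ncoa1 (0.21 ± 0.04, adjusted p = 0.00011) and Ncoa2 (0.09 ± 0.03, adjusted p = 0.044), and Ptges3, the HSP90 co-chaperone p23 (0.10 ± 0.03, adjusted p = 0.031). In HT mice Ncoa1 (0.20), Ncor1 (0.13) and the efflux pump gene Abcb1a (0.26) were past the threshold with fluoxetine, where 14.0% of all genes were. Of 30 tested PPAR and fatty acid genes, Ppargc1a (0.18 ± 0.06, adjusted p = 0.024) rose and Acadvl (-0.14 ± 0.05, adjusted p = 0.040) fell in WT fluoxetine mice (limma). In HT fluoxetine mice 3 of these were higher, Pnpla2, the lipase that starts breakdown of lipid droplets (0.40), Cpt2 (0.32) and Pdk2 (0.19), and Slc25a20 was lower (-0.14), with 14.0% of all genes past the threshold. Without HT fluoxetine female replicate 2 these counts were 2 higher and 3 lower, with 14.7% of all genes past the threshold. Without the 3 libraries that stand apart they were 1 higher and 3 lower, with 13.4% of all genes. Of 20 tested FOXO targets, the insulin receptor gene Insr rose (0.15 ± 0.03, adjusted p = 0.0011) and Gabarapl1 fell (-0.11 ± 0.03, adjusted p = 0.028) in WT fluoxetine mice. In HT fluoxetine mice Insr (0.10) and Foxo3 (0.13) were higher and Gabarapl1 (-0.16), Cdkn1b (-0.19) and Ccng2 (-0.11) lower, beside 14.0% of all genes. In HT lithium mice 3 FOXO targets were past the threshold and lower than in HT vehicle mice, Cited2 (-0.37), Txnip (-0.39) and Cdkn1b (-0.17). Of all genes, 5.01% were past it there in either direction. Between the sexes Gabarapl1 (-0.08, adjusted p = 0.026) and Bnip3 (-0.11, adjusted p = 0.034) were lower in females (limma), and both missed the threshold with the olfactory bulb covariate (adjusted p = 0.15 and 0.17). Of all genes, 2.10% passed between the sexes. Of 14 tested p53 targets, Bax (-0.22 ± 0.04, adjusted p = 8.8e-05) and Aen (-0.13 ± 0.05) fell with fluoxetine, and Sesn2 (0.32 ± 0.06, adjusted p = 0.0015) and Btg2 (0.68 ± 0.19, adjusted p = 0.042) rose with lithium in WT mice (limma). Of all genes, 14.8% passed with fluoxetine and 2.22% with lithium in WT mice. In HT fluoxetine mice Trp53inp1 (0.33) was higher and Bax (-0.13) lower, and without the 3 libraries that stand apart the p53 counts were 2 higher and 3 lower. Of all genes, 14.0% were past the threshold there, and 13.4% without those 3 libraries. Each of the 4 lists had a median log2 difference between -0.02 and 0.04 in WT fluoxetine mice, beside -0.001 over all genes, and the 2 calls of each of the PPAR, FOXO and p53 lists stand beside 14.8% of all genes. With the trend of the values on transcript length and GC content removed, 4 of the 12 calls over the 5 lists for fluoxetine in WT mice were kept (Ncor1, Ncoa1, Ptges3 and Aen) and 8 were lost (Ncoa2, -0.01; Insr, 0.04; Bax, -0.11; Mt1, -0.20; Nedd9, Ppargc1a, Acadvl and Gabarapl1), while all 4 for lithium were kept. With each library left out in turn, Ncor1, Ncoa1, Insr, Bax and Mt1 passed every time with fluoxetine and Dusp1, Per1 and Sesn2 with lithium, whereas Aen failed in 38 of 59 fits, Nedd9 in 31, Btg2 in 17, Ncoa2 in 12, Acadvl in 11, Ptges3 in 10, Ppargc1a in 5 and Gabarapl1 in 3.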

How the data were processed

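Messenger RNA was sequenced with a stranded TruSeq kit, per the labels' protocols. The submitters' processing notes name Salmon (0.11.2), DESeq2 (1.19.11), R (3.6.0) and the build GRCm38 without settings. The deposited values are a signal, estimated counts that the authors divided by a scaling factor, for 51456 identifiers, of which 51285 matched GRCm38 gene models. Identifiers without a gene model held 0.00333% of the summed values. Between 28.9% and 69.4% of low values per library were whole multiples of 1 read, within 0.1 of a step, so reads could not be recovered and no count model was run, although one had been planned for counts. Values summed to 30.3 to 33.8 M per library, and standard errors, which come from the spread between libraries, include counting error.

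The members and all gene lists were chosen with earlier results of these data known. Genes with a mean of at least 10 (16919) were fitted as log2(value + 1), which understates changes of low genes such as Plin4, in 1 model of 12 group means (limma 3.58.1 in R 4.3.3, trended robust empirical Bayes, 47 residual degrees of freedom, two-sided, Benjamini-Hochberg over all genes). Non-members named were those called, up to 4 per list and direction by smallest p, and the 8 most alike. Correlations used 100000 permutations. The same fit on simulated data for WT fluoxetine against WT vehicle recovered 63.0% of 200 genes changed by 0.3 (log2) and 99.5% of those changed by 1, over 16919 genes. Alternatives were other pseudocounts, filters, normalizations, a length and GC correction, a replicate block, fewer groups and each library left out. Correlations, searches and plots were made with SciPy 1.17.1, pandas 2.3.3, matplotlib 3.10.9 and NumPy 2.4.6 under Python 3.11.15.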

Additional observations from a re-analysis of the deposited data

Results flagged for a closer look

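In 120 combinations of gene and group of 4 or 5 libraries, the highest or lowest library was set against the others by Dixon's ratio, which flags about 1 in 20 by chance, and 9 were flagged. Tsc22d3 was low in WT fluoxetine male replicate 1 (1245, with 2481 to 2664 in the other 3), in HT lithium female replicate 1 (1559, with 1951 to 2134 in the other 4) and in HT vehicle female replicate 1 (1345, with 1900 to 2133). Hif3a was low in that same HT vehicle library (203, with 450 to 618 in the others) and in HT fluoxetine female replicate 1 (287, with 612 to 761). HT vehicle female replicate 1 was the lowest HT vehicle library for all of Plin4, Arrdc2, Sgk1, Fkbp5, Tsc22d3 and Hif3a. Fkbp5 was low in HT lithium female replicate 1 (625, with 962 to 1144), and Sgk1 was low in HT lithium male replicate 2 (1366, with 1600 to 1679). Arrdc2 was high in HT lithium female replicate 2 (230, with 173 to 188), and Pdk4 was high in WT lithium male replicate 3 (303, with 212 to 223).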

How the results depend on the processing

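The number of the 10 genes past the threshold was 0 in every tested comparison and alternative, except in WT fluoxetine against WT vehicle, where it was 1 with the replicate block (Hif3a 0.48, adjusted p = 0.032, limma) and at most 2 with 1 library left out. Arrdc2 there changed sign, to 0.0003 with the replicate block, 0.0187 with quantile normalization, 0.0504 with the length and GC trend removed and 0.0542 with both block and trend, and it ran from -0.0817 to 0.09 with 1 library left out, Tsc22d3 there from -0.02 to 0.18, and Sgk1 in WT lithium against WT vehicle from -0.01 to 0.08. With the length and GC trend removed, 1078 in place of 2500 genes were called in WT fluoxetine against WT vehicle, and 1113 with the block as well. Without a filter on low values the calls were 212 for WT lithium against WT vehicle (376 otherwise), 31 for HT lithium against WT lithium (93 otherwise) and 172 for female against male (355 otherwise). HT lithium against WT lithium gave 241 calls with equal library sums, 54 with the block and the trend removed, 449 with only the compared groups fitted and 55 with the olfactory bulb covariate, and female against male gave 77 with that covariate. The differences of drug response between the sexes gave 1 call (fluoxetine, block and trend removed) and 4 calls (lithium, compared groups only). With 1 library left out the calls were 2047 to 2582 for WT fluoxetine, 214 to 435 for WT lithium, 15 to 141 for HT lithium against WT lithium (15 without WT lithium male replicate 1), 199 to 1011 for female against male (1011 without WT fluoxetine male replicate 1) and 0 to 1 for the differences between the sexes. The lowest single values with 1 library left out were -0.548 (Angptl4, WT lithium), -0.337 (Angptl4, HT lithium against WT lithium) and -0.108 (Nr3c1, female against male). The cause was not tested for any of these. Of the 45 pairs, 12 passed in WT libraries alone, against 29. Equal library sums lowered the share of higher calls in WT fluoxetine to 30.4% (47.4% otherwise) and in HT lithium against WT lithium to 16.2% (41.9% otherwise). In correlations between whole libraries, replicate numbers showed no clear pairing: same-numbered libraries of different groups had a median of 0.002 (319 pairs, 53 over 0.1). For other-numbered libraries it was -0.002 (1276 pairs, 175 over 0.1). The replicate block gave 2581, 367, 95 and 369 calls in the 4 comparisons above. Within their groups, HT vehicle female replicate 1 was lowest for 6 of the first 6 genes. WT fluoxetine male replicate 1 and WT lithium male replicate 1 were lowest for 5 each, and WT vehicle female replicate 2 for 4. HT fluoxetine female replicate 1 was lowest for 3, and HT fluoxetine male replicate 1 and HT lithium female replicate 1 for 2 each. Low values of these genes thus gathered in libraries numbered 1, though HT lithium male replicate 1 and HT vehicle male replicate 1 were lowest for 0. Pairing of the first 6 genes by replicate number was not tested. The permutations took no account of it, so their p-values assume that libraries of a group can be swapped freely. The floor of 50 on the mean left Plin4 out, so it has no value there. Neither the olfactory bulb covariate nor the set without the 3 libraries that stand apart was among the alternatives first listed; both were chosen after seeing the data. A count model was not run, since the deposited values are no counts, and depth limits Plin4 most.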
